A study of Mus musculus with 2 samples.

Results

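Myc, Max and the Mxd genes encode a network of transcription factors that share 1 partner. The 10 genes described here were chosen by name: the activators Myc, Mycn and Mycl, their partner Max, the Max-binding repressors Mxi1, Mxd1, Mxd3, Mxd4 and Mnt, and Mga, which joins Max to a Polycomb-type complex. They are 10 of the 21138 protein-coding genes that were placed on the mouse build mm10 with a known strand. Each was described by the peaks of histone H3 trimethylated at lysine 4 (H3K4me3) that overlapped its 5′ end ± 1000 bp or its whole span.

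The data came from MEL cells, an established mouse erythroleukaemia line that begins to mature towards red cells when given dimethyl sulfoxide (DMSO). Both samples had received 2% DMSO for 5 days, were labelled biological replicates 1 and 2 of a single group, and carry the same biosample record, so their spread may be partly technical. Untreated MEL cells were not analysed here, so no value below is a change with DMSO, and with 1 group no test between groups was possible. A peak is an average over the cells of a culture, so a mark on fewer cells and a weaker mark on all of them cannot be told apart.

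As background, MYC proteins bind DNA only when paired with MAX, at the E-box sequence CACGTG, and raise the transcription of genes for growth and division. MXD proteins, MXI1 and MNT take the same partner to the same sites and bring in SIN3 and histone deacetylases, which lower transcription, and cells that leave the cycle commonly trade MYC for MXD proteins. In erythroleukaemia cells a fall of Myc is a long-known step of DMSO-driven maturation. H3K4me3 lies around the starts of genes that are active or poised, so it shows where a promoter carries the mark and not how much RNA is made.

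A gene was called marked when a peak of each replicate overlapped its 5′ end ± 1000 bp. Of the 10 network genes, 8 were marked, beside 47.1% of all protein-coding genes. The same 8 had a peak of both replicates over the gene span, which held for 56.7% of all genes. The 2 without the mark were Mycn and Mycl. Each marked gene was given the highest deposited signal value (the enrichment value of a peak in the authors' files, whose scale is not stated) among the peaks at its 5′ end, and a domain width, which joins peaks separated by at most 1000 bp. Means below are over the 2 replicates (SD, n = 2). Medians and percentiles of marked genes are of these means, and were not taken for each replicate apart. Read counts are not part of the peak files, which leaves the depth unknown.

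The 250 bases before the annotated start are shown for 6 starts on which the description turns: the 2 with an E-box (Mnt and Mxd4), the gene with the highest value (Max), the inner start of Mxi1, and the 2 unmarked genes. They are from RefSeq on build GRCm38.p6, which is mm10, and run 5′ to 3′ along the gene. Capitals mark the canonical E-box CACGTG.
Mnt, chr11:74830674-74830923, plus strand: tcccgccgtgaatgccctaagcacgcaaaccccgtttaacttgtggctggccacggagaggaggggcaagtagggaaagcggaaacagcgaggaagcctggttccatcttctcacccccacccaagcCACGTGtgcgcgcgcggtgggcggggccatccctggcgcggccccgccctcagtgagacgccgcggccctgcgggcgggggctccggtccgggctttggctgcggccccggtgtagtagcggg
Mxd4, chr5:34187711-34187960, minus strand: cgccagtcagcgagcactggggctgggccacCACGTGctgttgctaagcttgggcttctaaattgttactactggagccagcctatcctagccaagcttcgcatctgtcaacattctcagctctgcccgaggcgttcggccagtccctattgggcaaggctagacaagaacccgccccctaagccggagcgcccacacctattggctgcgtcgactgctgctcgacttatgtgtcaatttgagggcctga
Max, chr12:76962249-76962498, minus strand: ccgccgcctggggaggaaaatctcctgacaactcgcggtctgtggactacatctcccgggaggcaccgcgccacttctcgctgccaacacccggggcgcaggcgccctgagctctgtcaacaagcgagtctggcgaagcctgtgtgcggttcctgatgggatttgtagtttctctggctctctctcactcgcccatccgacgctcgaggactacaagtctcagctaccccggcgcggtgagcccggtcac
Mxi1 inner start, chr19:53329445-53329694, plus strand: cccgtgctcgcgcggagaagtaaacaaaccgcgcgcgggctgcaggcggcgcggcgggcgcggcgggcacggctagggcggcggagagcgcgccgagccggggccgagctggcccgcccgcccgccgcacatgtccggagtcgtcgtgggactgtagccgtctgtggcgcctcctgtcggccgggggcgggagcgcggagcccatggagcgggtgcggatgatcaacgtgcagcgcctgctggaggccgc
Mycn, chr12:12941837-12942086, minus strand: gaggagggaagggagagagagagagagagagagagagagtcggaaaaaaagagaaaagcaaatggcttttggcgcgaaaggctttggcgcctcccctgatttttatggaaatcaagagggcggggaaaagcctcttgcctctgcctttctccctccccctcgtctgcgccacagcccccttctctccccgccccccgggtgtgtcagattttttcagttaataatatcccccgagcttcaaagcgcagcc
Mycl, chr4:122995681-122995930, plus strand: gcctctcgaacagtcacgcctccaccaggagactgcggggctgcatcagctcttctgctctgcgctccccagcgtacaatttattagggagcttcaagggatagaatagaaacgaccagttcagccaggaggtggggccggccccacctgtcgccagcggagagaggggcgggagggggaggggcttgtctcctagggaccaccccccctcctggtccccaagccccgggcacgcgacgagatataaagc

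The promoter table matched 9 of the 10 genes, with 11 starts in all, and Myc was not among them. CACGTG, which reads the same on both strands, stood 219 bases before the start of Mxd4 and 123 before that of Mnt, so in 2 of 11 promoters, against 6.02% of the 32851 promoters in the table. The variant CACGCG, searched on both strands, stood in 2 of 11 (Mga and Mycl), against 7.62% of all. GATAA, the core of the site bound by GATA factors, was in none of the 11 on either strand, against 22.6% of all. GGGCGG, the GC box bound by Sp1-type factors, was in 10 of 11, the exception being Max, against 32.7% of all. A match of letters describes the sequence only, and says nothing of binding.

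All 11 promoters were richer in CpG than the median promoter of the table, which held 6. Among promoters of protein-coding genes marked in both replicates the median was 17, with quartiles of 11 and 24. Mxd4, Mycl, Mycn and 2 of the starts of Mxi1 were below that median. The later inner start of Mxi1 had 42, Mxd1 had 32 and Mnt had 26. Max and Mxd3 had 22 each, Mga 18, and Mxd4 and the other 2 starts of Mxi1 13 each. Of the unmarked genes, Mycl had 14, above Mxd4, and Mycn had 11, the fewest of the 11 starts. Of the 10102 promoters of protein-coding genes with at least 11 CpG, 77.5% were marked in both replicates.

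Myc itself carried the widest mark of the network. The gene lies at chr15:61985341-61990361 on the plus strand and spans 5021 bp. In replicate 1, 4 peaks formed a domain of 6942 bp, and in replicate 2 a single peak of 6807 bp covered it (6874.5 ± 95.5 bp). The domains began 1875 and 1834 bp before the 5′ end and reached 5066 and 4972 bp past it, so the ends differed by less than 100 bp between the replicates. The mark lay over 98.6% and 99.0% of the gene span (98.8% ± 0.296). Among the 626 marked genes of 4000 to 6000 bp, the median cover was 24.5%, and 3 genes, Myc included, reached its level.

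In width, Myc ranked at 91 of the 9950 marked genes, whose median was 2259 bp and whose 90th percentile was 4030 bp. In signal value it was ordinary: the highest peak at the 5′ end had 13.5 in replicate 1 and 12.5 in replicate 2 (13.0 ± 0.694), beside a median of 13.2 over all marked genes. In replicate 1 the 4 peaks of the domain had values from 12.6 to 14.6, with the highest over the last part of the gene. The domain of Myc was therefore long rather than tall, with peaks of close value in replicate 1. In replicate 2 it was 1 peak with 1 value, which shows no shape along the gene. Of 9949 other marked genes, the 3 nearest to Myc in log2 value and log2 width over both replicates were H2-DMa, Zbtb37 and Clint1, at Euclidean distances of 0.117, 0.177 and 0.209. H2-DMa had values of 13.2 and 12.4 and widths of 7081 and 7346 bp.

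Mycn, which encodes the MYC protein best known from the embryo and nerve tissue, had no peak. It lies at chr12:12936093-12941836 on the minus strand, and no peak of either replicate touched its span or the 1000 bp on each side. Mycl, the third MYC gene, lies at chr4:122995588-123002490 on the plus strand and was empty in the same way. A gene without any peak over its span or within 1000 bp of it was common, at 39.3% of all protein-coding genes. Around Mycn the nearest peak shared by the replicates lay 239 kb from the gene, with values of 3.26 and 4.14, and the next 364.2 kb on the other side. Mycl stood between marked neighbours. The nearest shared peak, 13.7 kb away at the start of Trit1, had values of 6.29 and 8.80, and the peak at the start of Mfsd2a, 33.7 kb away, had 15.4 and 18.1.

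Max, the shared partner, had the highest mean signal value of the network, although in replicate 1 Mxi1 was slightly higher (18.5 against 18.1). The gene lies at chr12:76937269-76962323 on the minus strand. Its value was 18.1 in replicate 1 and 24.6 in replicate 2 (21.4 ± 4.60), which ranked at 228 among the 9950 marked genes. Both values were above the 75th percentile of the mean values of all marked genes, 15.8. The domain measured 2912 and 2477 bp (2694.5 ± 308 bp), not far above the median width. The strong peak lay inside the gene in both replicates, from 60 to 1894 bp and from 57 to 1568 bp past the 5′ end, with a weaker upstream peak of 9.76 and 13.3.

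A second stretch of mark lay further inside Max, between 3.7 and 4.9 kb from the 5′ end. In replicate 1 it was a single peak of 9.25, and in replicate 2 it fell into 3 peaks of 7.92, 6.92 and 3.11. No start of Max in the promoter table lies there.

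**Figure D1:**
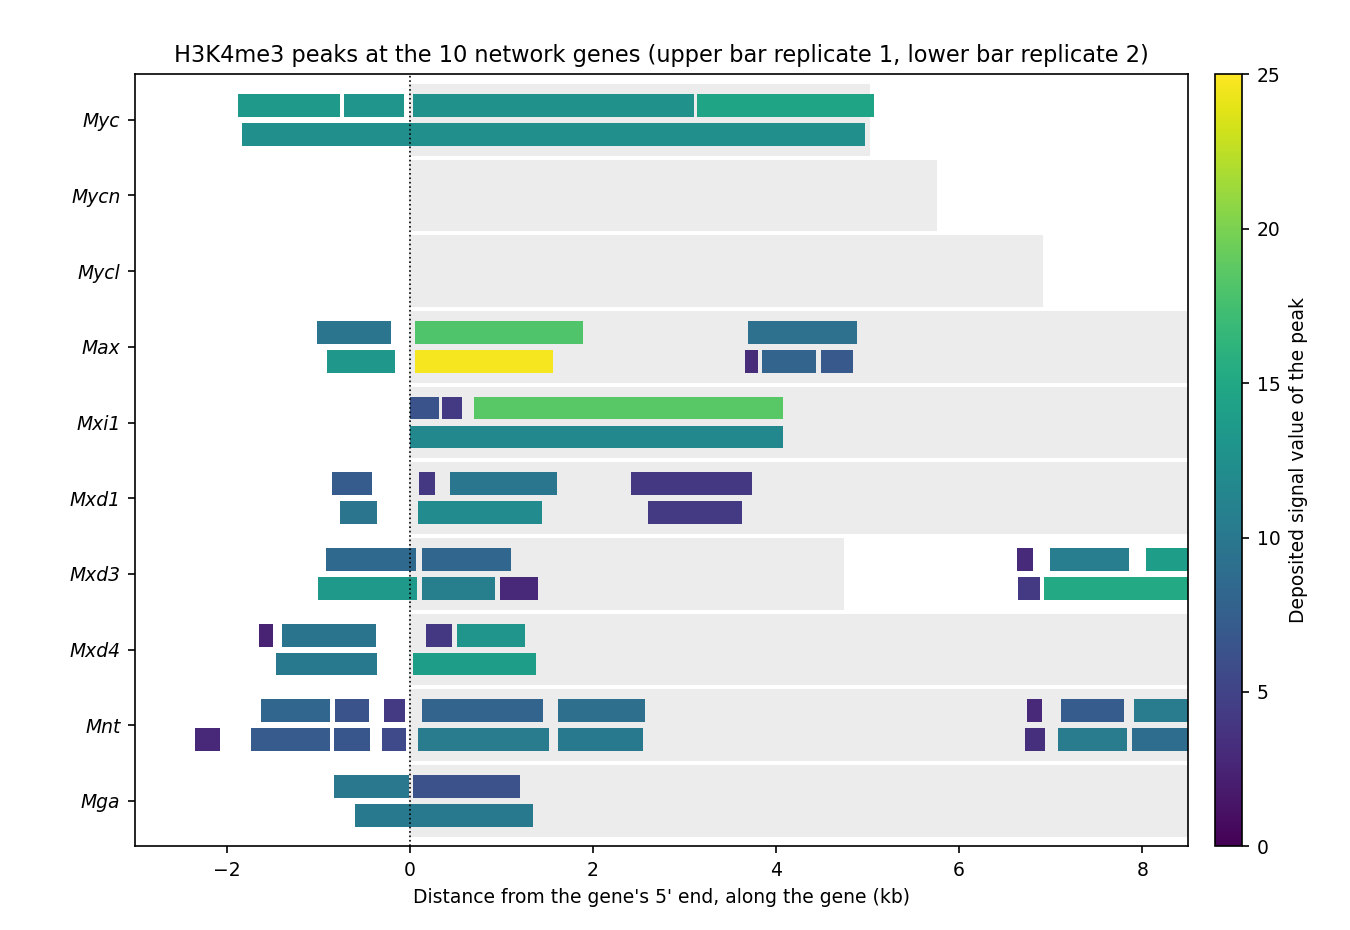
Each pair of bars shows the H3K4me3 peaks of replicate 1 (upper) and replicate 2 (lower) at 1 network gene, by distance from its 5′ end in kb along the gene, coloured by the deposited signal value, with the gene span shaded grey. Mycn and Mycl are empty, the mark of Myc fills the gene from about 1.9 kb before its 5′ end, and at Max, Mxd1, Mxd4 and Mnt the 5′ end itself lies between peaks in both replicates.

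The map of peaks around the 5′ ends shows how the mark lay about the ends of the gene records. At Mxd3 alone a peak covered the 5′ end in both replicates, 1 of 8 marked network genes beside 42.6% of all marked genes. At Max, Mxd1, Mxd4 and Mnt no peak of either replicate covered it, 4 of 8 beside 35.6% of all marked genes. At Myc, Mxi1 and Mga the 5′ end was covered in replicate 2 only. The uncovered stretch measured 259 and 212 bp at Max, 510 and 444 bp at Mxd1, 547 and 388 bp at Mxd4, and 186 and 128 bp at Mnt. At Myc and Mga it was 90 and 45 bp in replicate 1. These gaps depend on the start that is used, since the RefSeq start of Max, 75 bp inside the gene record, was covered by a peak in both replicates. So were the RefSeq start of Mxd3 and those of Mxi1 378 and 19567 bp in. That of Mnt was covered in replicate 2 only, and those of Mxd1, Mxd4 and Mga in neither.

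The repressors of the MXD group were all marked, at percentiles of value from 13.9 (Mnt) to 69.5 (Mxi1) of the marked genes. Mxi1, which pairs with MAX and recruits SIN3, lies at chr19:53310128-53373293 on the plus strand. Its value was 18.5 in replicate 1 and 11.6 in replicate 2 (15.1 ± 4.86). Set beside the mean values of marked genes, this spread reaches from above the 75th percentile to below the median. The domain, in contrast, was 4074 and 4077 bp (4075.5 ± 2.12 bp), wider than the 90th percentile of marked genes. About the end of the gene record it lay on the gene side. It began 1 bp after that end in replicate 1 and 1 bp before it in replicate 2, and ended 4074 and 4075 bp inside. The first RefSeq start lies 378 bp in, so part of the domain lay upstream of that start. With only the peak nearest the 5′ end, the value of Mxi1 was 9.04, because the strong peak of replicate 1 starts 701 bp in.

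Mxi1 had a second marked promoter. RefSeq places 2 further starts 19285 and 19567 bp inside the gene, and the peak there had 8.97 in replicate 1 and 17.5 in replicate 2 (13.2 ± 6.03), with domains of 1953 and 3301 bp. The replicates therefore ranked the promoters of Mxi1 in opposite order, with the outer higher in replicate 1 and the inner higher in replicate 2. The peak covered the later of the inner starts, the one with 42 CpG shown above, in both replicates. The earlier inner start, with 13 CpG, was covered in neither. The bases shown lie before the later start but wholly past the earlier one, so they are also gene sequence downstream of that start. Between the promoters, a further peak of 6.92 and 10.97, starting 15274 and 15025 bp inside the gene, overlapped no start of the table.

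Mxd1, the founding member of the family that rises as many cell types mature, lies at chr6:86647044-86669234 on the minus strand. Its value was 9.79 and 12.004 (10.9 ± 1.57), and both were below the median of the mean values of marked genes. Its domain was 4590 bp in replicate 1 and 2206 bp in replicate 2 (3398 ± 1686 bp). A weak peak from 2.4 to 3.7 kb inside the gene, 4.04 and 4.26 in value, was present in both replicates and was joined to the domain in replicate 1 only, so the difference in width is one of joining.

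Mxd3 lies at chr13:55325170-55329900 on the minus strand. It had 8.42 in replicate 1 and 13.4 in replicate 2 (10.9 ± 3.53). Beside the mean values of marked genes, the lower was below the 25th percentile and the higher near the median, 13.2. Where 13.4 falls among the values of replicate 2 alone was not determined. Its domain was of middle width, 2022 and 2401 bp (2211.5 ± 268 bp). Past its 3′ end lay the shared promoter region of Rab24 and Prelid1, with values of 10.5 and 15.1, at a distance of 2.3 kb. The same replicate 2 peak also overlapped a peak of replicate 1 further out, of 13.8.

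Mxd4, which lies at chr5:34176580-34187710 on the minus strand, had close values in the replicates by its highest peak. They were 13.0 and 13.8 (13.4 ± 0.553), and its domain measured 2903 and 2839 bp (2871 ± 45.3 bp). By the peak nearest the 5′ end the replicates lay far apart, at 4.04 and 13.8 (8.94 ± 6.92). The mark stood in an upstream part, 9.62 and 10.1, and a stronger part inside the gene, 13.0 and 13.8, on either side of the uncovered 5′ end. The E-box 219 bases before the start falls in the uncovered stretch, which reaches 372 and 358 bp upstream.

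Mnt, the broadly expressed antagonist of MYC, had the lowest mean value of the marked network genes and the second widest mean domain. It lies at chr11:74830806-74845725 on the plus strand. Its value was 8.20 and 10.3 (9.24 ± 1.46), at percentile 13.9 of marked genes. Its domain was 4200 and 4890 bp (4545 ± 488 bp), at percentile 93.4. In replicate 2 Mga was lower in value (10.07), and in replicate 1 Mxd1 was wider (4590 bp). The domain was made of many small pieces, 5 peaks in replicate 1 and 6 in replicate 2, and its width rests on joining them: without joining it was 1372.5 ± 75.7 bp. A second block lay 7.1 to 8.6 kb inside the gene, with peaks of 7.19 and 10.4 in replicate 1 and 10.4 and 8.79 in replicate 2, which was at least as high as the value at the 5′ end in each replicate. The E-box 123 bases before the RefSeq start lies in the uncovered stretch, which reaches 49 and 38 bp before the end of the gene record and 138 and 91 bp past it.

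Mga, a very large protein that binds MAX and also carries a T-box domain, lies at chr2:119872503-119970129 on the plus strand. Its value at the 5′ end was 10.02 and 10.07 (10.05 ± 0.0359), and its domain measured 2034 and 1950 bp (1992 ± 59.4 bp), the narrowest on average, with Mxd3 narrower in replicate 1 (2022 bp). The start that RefSeq gives lies 24725 bp further in, at chr2:119897228. There the value was 12.5 and 11.7 (12.1 ± 0.531) and the domain 2586 and 2660 bp, so both measures were higher at the inner start than at the outer in each replicate. A further peak 56 kb inside, 4.05 in value, was called in replicate 1 only. The peaks past the 3′ end of Mga lay towards the 5′ end of Mapkbp1.

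**Figure D2:**
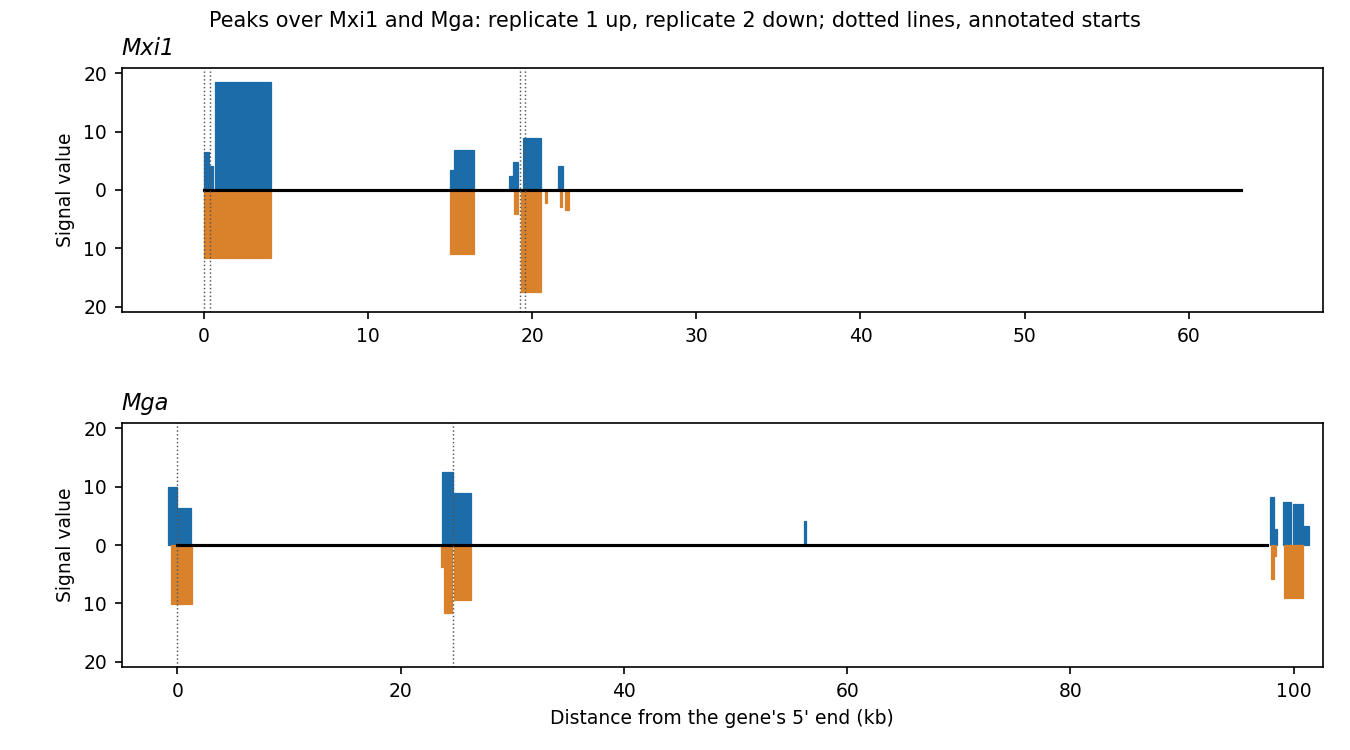
The bars show the peaks over Mxi1 (upper panel) and Mga (lower panel), with height the deposited signal value (replicate 1 upwards, replicate 2 downwards), against distance from the gene's 5′ end in kb, and dotted lines at annotated starts. Both genes have a second marked promoter inside the gene, 19567 bp in at Mxi1 (8.97 and 17.5) and 24725 bp in at Mga (12.5 and 11.7).

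The plot of peaks over Mxi1 and Mga shows that most of each gene body was bare. Marked stretches covered 11.5% and 11.9% of the span of Mxi1 and 3.92% and 3.87% of that of Mga. At 5 of the 8 marked network genes each replicate had a peak wholly over 2000 bp past the 5′ end that overlapped the other's, against 25.2% of all marked genes. They were Max, Mxi1, Mxd1, Mnt and Mga. Where only the peak of replicate 1 had to lie that far in, Myc was the sixth, against 26.1% of all marked genes, since its replicate 2 peak also covers the 5′ end. A gene had to be long enough to hold such a peak, and gene length was not matched in this comparison.

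**Figure D3:**
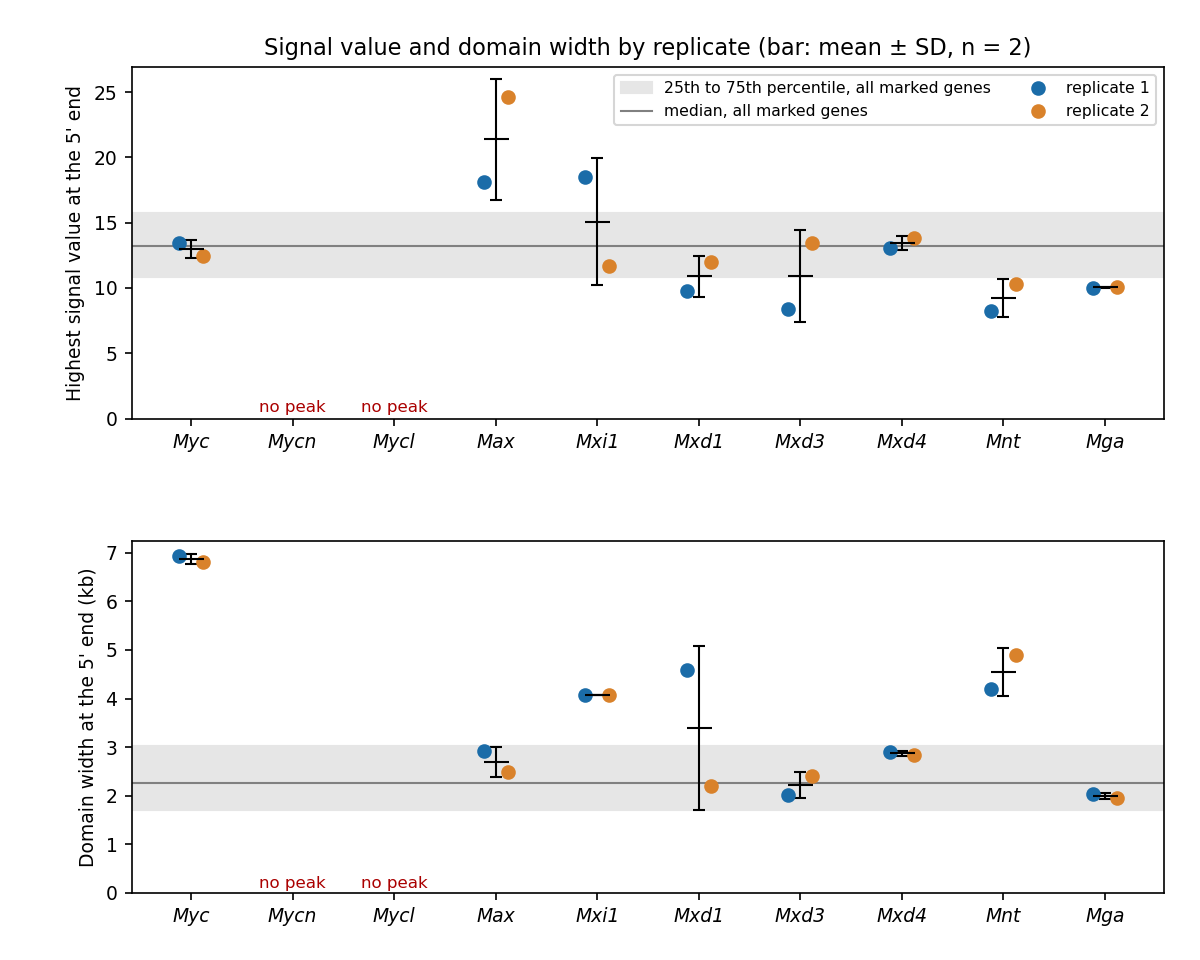
Points show the highest deposited signal value (upper panel) and domain width in kb (lower panel) at each network gene's 5′ end in replicates 1 and 2. Bars are the mean ± SD (n = 2). The grey band and line are the 25th to 75th percentile and median of such means over all 9950 marked genes. In mean value Max stands highest with 18.1 and 24.6, and in width Myc stands apart with 6942 and 6807 bp.

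Ordered by value, the marked genes ran Max, Mxi1, Mxd4, Myc, Mxd3, Mxd1, Mga and Mnt, and each neighbouring pair overlapped between the replicates. The order by value is therefore not resolved from one step to the next. The order by width was firmer: Myc was above Mnt, Mnt above Mxi1 and Max above Mxd3 in both replicates, without overlap, while the other 4 neighbouring pairs overlapped. These widths depend on joining peaks, and without it the means were 4940 bp at Myc, 3725.5 at Mxi1 and from 1032 (Mxd3) to 1673.5 (Max) at the others. Without joining, Mxi1 was wider than Myc in replicate 1 (3374 against 3073 bp) and narrower in replicate 2 (4077 against 6807 bp). In the plot of values and widths by replicate, 6 of the 8 were wider than the median marked gene and 3 (Max, Mxi1 and Mxd4) had a higher value than it. The median of the 8 was 11.9 in value, against 13.2 over all marked genes, and 3134.5 bp in width, against 2259 bp. Replicate 2 gave the higher value at 6 of the 8, and at 64.2% of all marked genes. The exceptions were Myc and Mxi1.

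The spread between replicates differed widely among the genes. The log2 ratio of replicate 1 to replicate 2 was 0.67 at Mxi1 and -0.67 at Mxd3, and -0.01 at Mga and -0.08 at Mxd4. Over all marked genes the median of this ratio was -0.16 with an SD of 0.47, so the ratios at Mxi1 and Mxd3 were within 2 SD of that median.

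**Figure D4:**
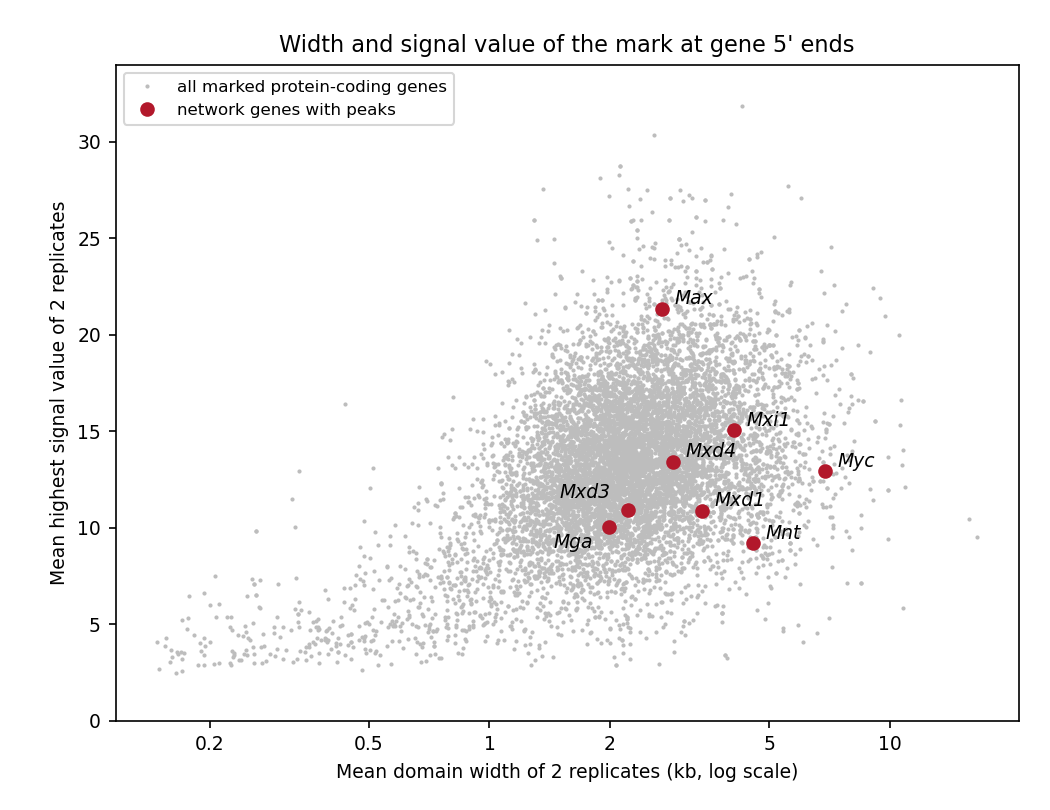
Each grey point is a marked protein-coding gene, placed by its mean domain width (kb, log axis) and mean highest signal value over the 2 replicates, and red points are the 8 marked network genes. Myc (6874.5 bp, 13.0) lies at the right edge at a middle value, Max (2694.5 bp, 21.4) near the top at a middle width, and Mnt (4545 bp, 9.24) is wide and low.

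The plot of width against value places the activator, its partner and the antagonist Mnt in different regions. Myc was at percentile 99.1 in width and 46.7 in value, Max at 66.2 and 97.7, and Mnt at 93.4 and 13.9. Mxi1 was at 90.5 in width and 69.5 in value. Mga was below the middle in both, at 37.6 and 18.9, at the end of its gene record. At its RefSeq start the domains, 2586 and 2660 bp, were above the median width of 2259 bp, with values of 12.5 and 11.7.

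The mark around Myc went beyond the gene. The neighbouring protein-coding genes are far off, A1bg at 1064070 bp and Gsdmc at 1785609 bp. Between Myc and these 2 genes, 19 peaks of replicate 1 outside the gene and its window overlapped a peak of replicate 2. The density of peaks there was not compared with that of the genome, so the count does not show an enriched neighbourhood. Of these, 12 lay over Pvt1, the long non-coding RNA gene beside Myc that is often amplified with it in tumours, and 7 did not. Pvt1 lies at chr15:62037986-62260215, and its 5′ end is 52645 bp past that of Myc. A peak of 3338 and 3456 bp stood at this 5′ end, with a value of 11.4 in replicate 1 and 21.9 in replicate 2. In replicate 1 it was thus lower than the highest peak at the Myc 5′ end (13.5) and in replicate 2 higher (12.5).

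Inside Pvt1 a cluster of peaks lay 228 to 238 kb past the 5′ end of Myc. Its strongest peak, chr15:62214014-62216129 in replicate 1, had values of 12.2 and 10.8, close to those of Myc itself. The next peak along had 5.63 and 5.99. Weaker shared peaks lay on the other side, 443.9 kb (5.30 and 6.67) and 436.3 kb (4.84 and 4.82) upstream of the gene. The shared peak farthest out, 742.5 kb past the 5′ end of Myc, had 3.64 and 2.15, with a deposited −log10 q of 3.40 and 0.280, so it was barely called in replicate 2.

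**Figure D5:**
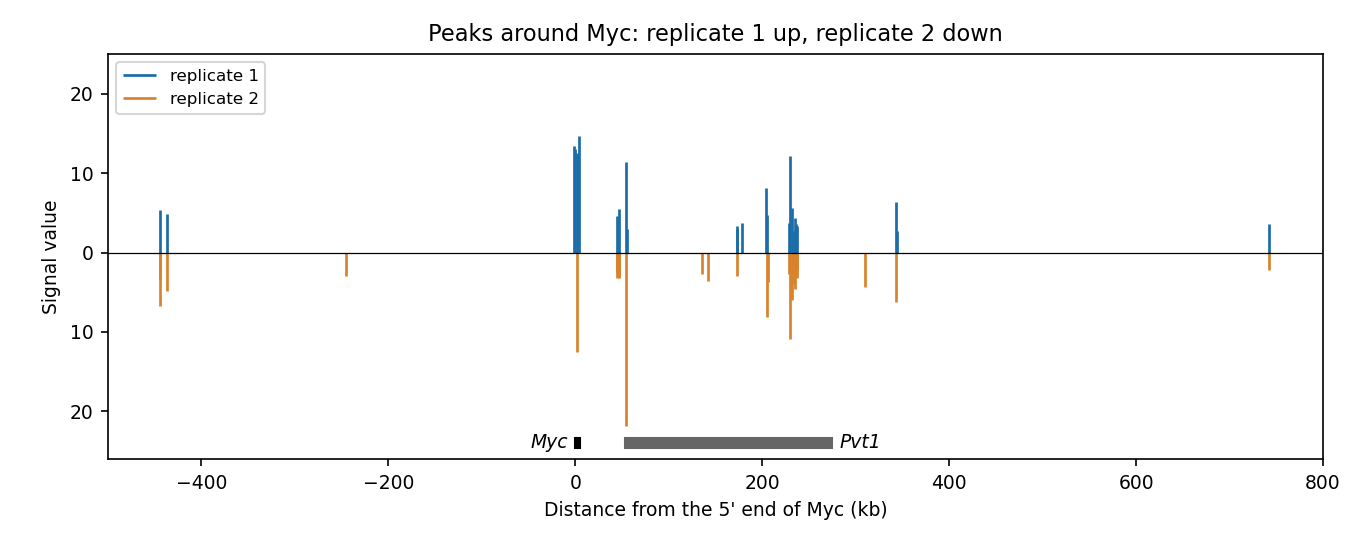
Vertical lines show the peaks between 500 kb before and 800 kb past the 5′ end of Myc, with height the deposited signal value (replicate 1 upwards, replicate 2 downwards), and bars the spans of Myc and Pvt1. Apart from Myc, the highest lines are at the 5′ end of Pvt1 (11.4 and 21.9) and in the cluster inside Pvt1 (12.2 and 10.8).

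Genes that work with the network were described from 5 lists. Of their 80 genes, 74 were marked, beside 47.1% of all protein-coding genes, a share that also stands beside the count of each list below. The marked list genes had a median value of 13.5 and a median width of 2838 bp, against 13.2 and 2259 bp over all marked genes. The listed genes are mostly ones that dividing cells use in general, and nothing particular to the network follows from the count. In the MLX arm, a parallel set of factors that sense glucose, 2 of 3 were marked: Mlxip had 14.5 and 13.6 (14.1 ± 0.641), Mlx had 8.96 and 15.6 (12.3 ± 4.66), and Mlxipl was unmarked.

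Among the cofactors of MYC and the enzymes that turn it over, 18 of 20 were marked, with a median value of 14.5. The highest were Cip2a, which protects MYC from dephosphorylation, at 19.9 ± 3.08, and Ccnt1, the cyclin of the elongation kinase that MYC recruits, at 19.8 ± 4.22. The lowest was Ruvbl2, a helicase of the TIP60 complex, at 8.43 ± 2.20. Bin1 and Skp2 were unmarked at the 5′ end of the gene record. Bin1 had no peak over its span, while Skp2, a ubiquitin ligase subunit for MYC, had span peaks of up to 18.2 and 8.97.

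All 14 corepressor genes that serve the MXD proteins were marked, with a median value of 13.0 and a median width of 3090 bp. Sap18 (19.8 ± 1.27) and Hdac2 (16.9 ± 3.06) had the highest values and Suds3 (9.91 ± 5.50) the lowest. Sin3a, the scaffold that MXD proteins bind, was chosen after its values were seen: its domain measured 7259 and 7271 bp (7265 ± 8.49 bp), wider than that of Myc in both replicates. All 11 genes of the complex that holds MGA were marked as well. Cbx3 (18.0 ± 6.34) and Rnf2 (17.6 ± 0.884) led, and L3mbtl2 (10.1 ± 1.46) was lowest.

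Of 32 textbook targets of MYC, 29 were marked, with a median value of 12.4. Odc1, the rate-limiting enzyme of polyamine synthesis, had 27.8 and 18.9 (23.3 ± 6.28), and Gnl3, which encodes nucleostemin, had 26.1 and 20.6 (23.3 ± 3.88). Both exceeded the mean of Max. The lowest was Eif4a1 at 6.55 ± 1.67. Of the unmarked targets, Ccnd1, which encodes cyclin D1, had no peak over its span. Cdkn1a, a cell-cycle inhibitor that MYC represses, was unmarked at the end of its gene record but had span peaks of up to 7.97 and 19.3. Ldha, the third, chosen after its values were seen, likewise had a span peak of 14.5 and 19.4. When any RefSeq start was allowed, 77 of the 80 were marked, beside 48.8% of all genes.

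The labelled cell type was checked with markers, some of them named after their values were seen. Of 10 erythroid genes, 9 were marked at the 5′ end, beside 47.1% of all protein-coding genes. They ran from Klf1 at 21.03 ± 0.400 down to the globin gene Hba-a2 at 2.88 ± 0.181. Slc4a1 (4.24 ± 0.384) and Hba-a1 (4.93 ± 0.964) were low too. The exception, Gata1, had span peaks of up to 21.1 and 15.02. Of 15 markers of lymphoid, myeloid, liver, nerve and connective tissue cells, 1 was marked at the 5′ end, Col1a1 with 5.17 ± 0.931, above the 3 low erythroid genes. By span peaks of both replicates, 4 of the 15 were marked (56.7% of all genes), and by RefSeq starts 2 (48.8% of all genes). The lymphoid kinase gene Lck was high there, with span peaks of up to 22.3 and 21.6 and 15.3 and 21.6 at its RefSeq starts, and its part in the results was not tested.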

How the data were processed

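H3K4me3 ChIP-seq was profiled in 2 replicates of DMSO-treated MEL cells (fragments of 150 to 350 bp, per the labels). The authors deposited called peaks on mm10: 48026 in replicate 1 and 46950 in replicate 2 on chromosomes 1 to 19, X and Y, a pooled set of 45937 and a replicated set of 37550, plus an older mm9 set. Per the notes deposited beside the files, each replicate's set came from its own alignments and 2 files shared by the sets. The aligner, peak caller and threshold are not given in the sources used here. Every peak came with the authors' signal value, of unstated scale, and with a deposited q-value on a −log10 scale. Deposited p-values, also on a −log10 scale, were used for the 2 replicate sets only.

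Percentiles and medians over marked genes are of the mean of the replicates, also where a value of 1 replicate is set beside them. This mean takes both sets to be on one scale. Strands came from the RefSeq promoter table for 17491 genes and from GENCODE M1 for 3647, and 745 protein-coding genes without a strand were not used. Peaks overlapping by at least 1 bp were counted as shared. Joining used a gap of at most 1000 bp. Python 3.11.15, numpy 2.4.6 and pandas 2.3.3 were used, and the scripts were tested on simulated data. The members and lists were chosen with earlier results of these data known. Named are all members, and of each list the 2 highest marked genes, the lowest, and the first 2 unmarked by name, with Pvt1, the neighbours of members where a peak lies between them, and the 3 genes most like Myc. Alternatives changed the window, the peak threshold, the overlap, the gap, the peak set, the starts and the replicates, and the choice of any RefSeq start was added after seeing the data.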

Additional observations from a re-analysis of the deposited data

How the results depend on the processing

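The count of 8 marked members was 8 in 11 of 13 alternatives. It was 7 with a reciprocal overlap of 50%, which left out Myc, whose 4 peaks in replicate 1 faced 1 peak in replicate 2. It was 1 (Mxd3) when a peak had to cover the 5′ end itself, and the list genes then went from 74 to 22. Otherwise the list genes ran from 71 to 77, and members with a span peak from 7 to 8. Without either replicate the counts were 8 and 74. Myc had the widest domain in every alternative run, by the mean of the replicates used. Without joining peaks that mean was 4940 ± 2640 bp, and in replicate 1 Mxi1 was then wider than Myc (3374 against 3073 bp). Without joining, Mnt went to 1372.5 bp, Mxd1 to 1262, Mxd4 to 1187, Mxd3 to 1032 and Max to 1673.5. Second in width was then Mxi1, and it was Mxd1 in the pooled and replicated sets and without replicate 2. Mxd3, not Mga, was narrowest with the stricter peak thresholds, without joining, with any RefSeq start and without replicate 2. The lowest value was that of Mxi1 (9.04) with a 500 bp window and of Mga without replicate 1. Max had the highest value in all but 1: without replicate 2, Mxi1 had 18.5 and Max 18.1. Width of Max was 5826.5 bp with a gap of up to 3000 bp, since its inner peaks then joined. With the peak nearest the 5′ end the value was 8.94 at Mxd4 and 4.88 at Mnt, the cause being the choice of a smaller peak. In the pooled and replicated sets the value was 12.04 at Myc, 8.38 at Mxd1, 14.5 at Mxd4, 7.39 at Mnt and 10.4 at Mga. Each of these lay outside the values of both replicates, while Max, Mxi1 and Mxd3 lay between theirs. The SD over the replicates is therefore not the whole uncertainty of a value. In the older mm9 set of 15810 peaks, 8 members were marked, the domain of Myc was 7321 bp, and Mycn and Mycl had no peak. The number of samples, 2, limits the precision of each mean, and weak peaks may be missed at the unknown depth.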

Other observations

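The interval between Max and the next gene on its upstream side, Fut8, held 36 peaks of replicate 1 and 35 of replicate 2. This density was not compared with that of the genome. Over 275106 bp, 28 of the peaks called in replicate 1 were met by at least 1 peak in replicate 2, counting those at the Max and Fut8 promoters. The highest apart from those lay at the start of the gene model Gm40446, 227.1 kb from Max, with values of 14.8 and 11.3. Another, 97.5 kb from Max and at no annotated start, had 11.03 and 10.6. On the other side, between Max and Fntb, no peak of either replicate was called in 15856 bp.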
